A study of Mus musculus with 3 samples.

Results

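The 41 genes described here are DNA methylation and chromatin regulators, chosen by gene symbol to cover DNA methyltransferases, TET dioxygenases, Polycomb, Trithorax and SWI/SNF subunits, histone demethylases, acetyltransferases and deacetylases, and Ctcf. All 41 symbols were found among the 24982 gene symbols of the count files. RNA sequencing gave their levels in LKS cells, mouse bone marrow cells without lineage markers that carry Kit and Sca1, among them blood stem cells and early progenitors. These came from recipient mice that lacked CD73 (CD73-/-, 1 library, called KO) and from wild-type recipients (WT, 2 libraries). CD73 is a surface enzyme, the product of Nt5e, and makes adenosine from extracellular AMP. The labels call the mice recipients and do not say if donor or host cells were sorted, how the allele was made, or how old the mice were. Nor do they say if each WT library is from an animal of its own, so the spread behind the p-values is that between these samples and may be technical.

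DNA methylation and histone modification set which genes of a stem cell can be read. Dnmt3a and Dnmt3b add methyl groups to unmethylated CpG dinucleotides, Dnmt1 with Uhrf1 copies the pattern after replication, and TET enzymes oxidise the methyl group, which leads to its loss. Polycomb complexes keep developmental genes silent, Trithorax-type methyltransferases oppose them, and SWI/SNF complexes slide or evict nucleosomes. In blood, loss of Dnmt3a or Tet2 favours stem cell expansion in mice, DNMT3A, TET2 and ASXL1 are recurrently mutated in human clonal haematopoiesis, and Bmi1 is needed for self-renewal of mouse stem cells.

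The libraries were shallow, with 264704 counts summed over genes in KO, against 361638 in WT replicate 1 and 324954 in WT replicate 2. The most abundant RNA, the ribosomal precursor Rn45s, took 2.07% of counts in KO, against 1.33% and 1.46% in the WT libraries. Nt5e had 0 counts in all 3 libraries, so the label could not be checked on the deleted gene. A count of 0 allows up to 11.3 CPM (counts scaled to the library total) in KO, against 8.30 and 9.23 CPM in the WT libraries. Kit had 555 CPM in KO, against 517 and 637 CPM in WT, and Ly6a, which encodes Sca1, had 136 CPM in KO, against 166 and 58.5 CPM in WT. Mecom, a stem cell transcription factor, had 0 counts in KO, against 31 and 21 counts in WT. The 14 gate and stem or progenitor markers summed to 2777 CPM in KO, against 3515 and 3557 CPM in WT, and the mature neutrophil list to 378 CPM in KO, against 830 and 1148 CPM in WT. The dendritic cell list summed to 3279 CPM in KO, against 152 and 702 CPM in WT. Of its 10 genes 6 were detected in KO, against 5 and 5 in WT, and 2 passed the edgeR test, higher in KO, with Siglech, Batf3 and Zbtb46 at 0 in every library. The erythroid list summed to 880 CPM in KO, against 686 and 419 CPM in WT, the monocyte and macrophage list to 280 CPM in KO, against 113 and 406 CPM in WT, and the stroma and endothelium list to 132 CPM in KO, against 252 and 292 CPM in WT. The B lineage list summed to 7.56 CPM in KO, against 16.6 and 64.6 CPM in WT, and the T and NK lineage list to 155 CPM in KO, against 194 and 105 CPM in WT. Several sums rest on few genes, so they do not show that such cells were present. In KO the T and NK sum was Nkg7 alone, and Pecam1 held 98.2 CPM of the stroma and endothelium sum. Of the dendritic sum in KO, H2-Aa, H2-Ab1, H2-Eb1 and Cd74 held 400, 759, 589 and 952 CPM. Irf8 held 476 and Clec9a 102 CPM, and Itgax had 0 counts in KO, against 4 and 0 in WT. Any part of other cells in the values of the chromatin regulators was not tested. In sorted bulk cells fewer cells of a type and less RNA per cell cannot be told apart.

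No chromatin regulator passed the test between KO and WT. The 41 genes summed to 7144 CPM in KO, against 7837 CPM in WT replicate 1 and 7318 CPM in WT replicate 2. The KO sum was the lowest on library totals and lay between the WT sums on TMM-scaled CPM. By role, the sums of the DNA methyltransferases with Uhrf1, the TET enzymes and Polycomb repressive complex 1 with Asxl1 were lower in KO than in both WT libraries. So were those of the H3K9 genes and the activating methyltransferases. The sums of the SWI/SNF subunits with Chd4, the demethylases and the deacetylases were higher in KO than in both, and the rest lay between the WT libraries. The log2 ratio of the demethylase sum, 0.27, was -0.21 with the mean over transcript rows and -0.59 without Kdm4a. That of the deacetylase sum, 0.43, was 0.041 without Hdac3. That of the H3K9 sum, -0.31, was -0.049 without Ehmt2, where 408 CPM in KO lay between 351 and 542 CPM in WT. In the test across all genes (edgeR quasi-likelihood test, Benjamini-Hochberg adjustment over 7984 genes), 8 genes were higher in KO (0.1%) and 0 were lower (0%), and none of the 37 chromatin regulators tested was among them. The smallest adjusted p of a member was 0.62, for Chd4. At an unadjusted p under 0.05 there were also 0 members, where 10% of all genes tested passed. DESeq2 likewise called 0 of the 32 members to which it gave an adjusted p, against 0.316% of the genes it adjusted, and gave none to Tet2, Eed, Ring1, Ep300 and Hdac2. At an unadjusted p under 0.05 it had 0 of 37 members, against 13.2% of all genes tested. The comparison has 1 KO library, which the fit assumes to vary like the WT pair, and an exact permutation test of 1 against 2 libraries cannot give a p below 0.333. In simulations of this comparison on the more abundant genes, edgeR recovered 8 to 24% of genes raised 4-fold and 0 to 2% of those lowered 4-fold. The lack of calls, most of all on the lower side, thus does not show unchanged levels. Tet1, Bmi1, Rnf2 and Sirt1 had too few counts to be tested.

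**Figure D1:**
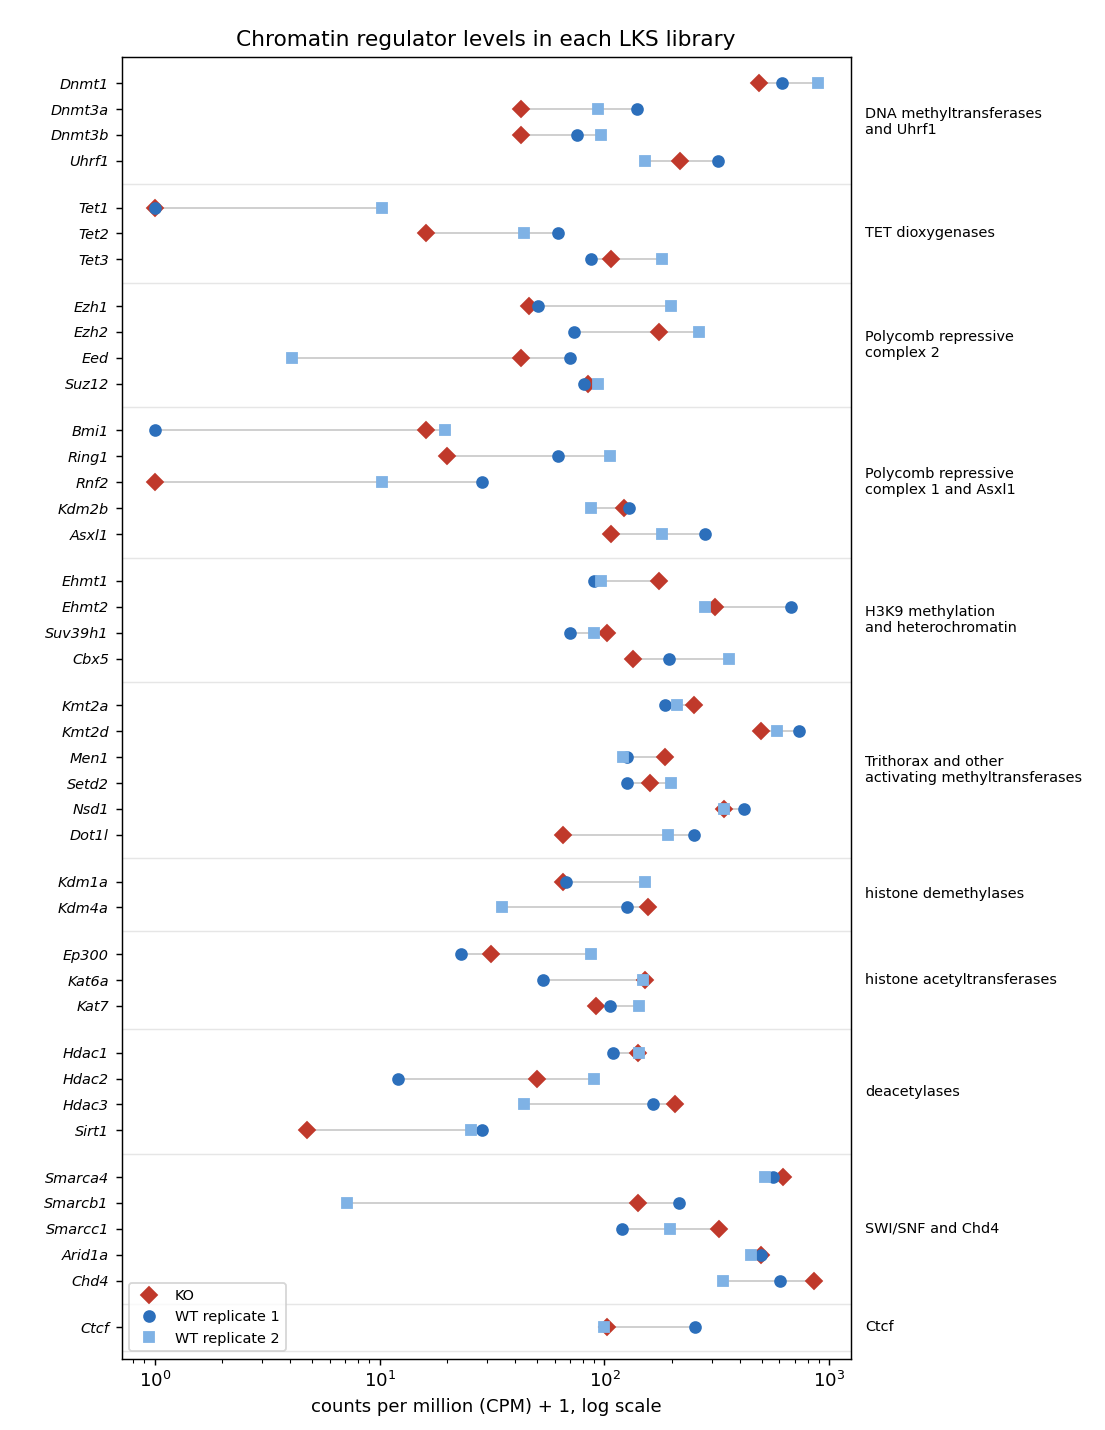
Level of each of the 41 chromatin regulators in the KO library (red diamonds) and in WT replicates 1 and 2 (dark circles and light squares), as CPM plus 1 on a log axis, grouped by role. The grey line joins the lowest and highest library: it is short for Suz12 and Smarca4, and long for Smarcb1 and Eed, whose WT libraries lie farther apart than KO lies from WT replicate 1.

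The promoters of these genes are rich in CpG, a feature that the list was not chosen on. RefSeq promoter windows, from 250 bases before to 50 after a transcription start (GRCm38.p6), were used for 37 of the 41 genes, 52 windows in all, some of which overlap. They held a median of 29 CpG dinucleotides, the letters that DNA methyltransferases act on, against 21 in the windows of genes tested and 7 in all 32851 windows, which include noncoding genes. Their median G and C content was 68.3%, against 61.0% for genes tested. The GC box GGGCGG stood on either strand in 82.7% of the members' windows, in 63.8% of those of genes tested and in 35.7% of all, whereas CCAAT stood in 38.5%, 37.5% and 37.4%. ETS letters, CCGGAAGT, were found for Kat7 alone, in 1.9% of members' windows, against 9.6% for genes tested and 3.9% for all windows. The E2F letters TTTGGCGC were found for Ezh2 and Dnmt1 in 3.8% of the windows, against 1.1% for genes tested and 0.5% of all, and TTTCCCGC for Arid1a and Suz12, also in 3.8%, against 2.4% and 1.1%. Every motif was searched on both strands, and a match is a description of these windows, not a site.

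Printed here are the 250 bases upstream of the start for Dot1l, Dnmt3a, Dnmt1 and Chd4. Dot1l and Dnmt3a were the members that had at least 50 counts in some library and were at least 2-fold below each WT library in KO. Dnmt1, the member with the highest mean FPKM, is shown at its outermost annotated start and at the one richest in CpG. Chd4 was the member with the highest FPKM in KO. FPKM stands for fragments scaled to transcript length and to library size. Capitals mark GGGCGG or CCAAT on either strand, and the TTTGGCGC of Dnmt1 lies after its start and is not shown. Gene and promoter coordinates are those of RefSeq on GRCm38.p6.
Dot1l, chr10:80754953-80755202, plus strand, 44 CpG: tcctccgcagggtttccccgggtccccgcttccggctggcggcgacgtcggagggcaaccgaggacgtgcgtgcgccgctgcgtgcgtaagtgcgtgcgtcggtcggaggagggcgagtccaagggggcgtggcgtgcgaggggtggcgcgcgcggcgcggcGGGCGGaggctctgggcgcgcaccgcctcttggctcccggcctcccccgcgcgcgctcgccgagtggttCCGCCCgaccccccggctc
Dnmt3a, chr12:3891494-3891743, plus strand, 15 CpG: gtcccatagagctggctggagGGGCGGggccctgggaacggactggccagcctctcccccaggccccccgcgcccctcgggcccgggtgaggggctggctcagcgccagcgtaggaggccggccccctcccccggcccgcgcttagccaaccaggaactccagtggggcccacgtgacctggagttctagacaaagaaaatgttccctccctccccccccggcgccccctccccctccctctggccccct
Dnmt1, outermost start, chr9:20959889-20960138, minus strand, 2 CpG: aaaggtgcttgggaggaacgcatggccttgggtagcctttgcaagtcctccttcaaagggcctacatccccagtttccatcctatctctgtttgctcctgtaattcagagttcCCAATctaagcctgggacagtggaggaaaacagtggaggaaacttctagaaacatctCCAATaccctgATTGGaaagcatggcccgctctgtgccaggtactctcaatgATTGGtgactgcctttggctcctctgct
Dnmt1, start richest in CpG, chr9:20952624-20952873, minus strand, 26 CpG: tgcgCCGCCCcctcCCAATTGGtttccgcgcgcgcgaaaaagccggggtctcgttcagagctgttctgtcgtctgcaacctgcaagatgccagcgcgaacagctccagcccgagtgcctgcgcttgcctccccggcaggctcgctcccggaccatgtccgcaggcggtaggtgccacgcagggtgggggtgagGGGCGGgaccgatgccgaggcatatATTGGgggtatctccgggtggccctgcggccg
Chd4, chr6:125095731-125095980, plus strand, 12 CpG: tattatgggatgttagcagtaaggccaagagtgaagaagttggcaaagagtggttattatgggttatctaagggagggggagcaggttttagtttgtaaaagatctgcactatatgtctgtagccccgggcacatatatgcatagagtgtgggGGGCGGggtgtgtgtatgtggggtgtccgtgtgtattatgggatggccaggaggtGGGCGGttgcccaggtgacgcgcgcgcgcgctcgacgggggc
The windows of Dot1l and of the inner Dnmt1 start are dense in CpG, while the outermost Dnmt1 window has 4 CCAAT matches and 2 CpG. At the inner Dnmt1 start, 2 CCAAT matches on opposite strands overlap. A further annotated Dnmt1 start, with the window chr9:20952930-20953229 and 12 CpG, is not printed. The inner window lies downstream of that start, so it can hold transcribed bases.

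The DNA methyltransferases and Uhrf1 summed to 782 CPM in KO, against 1145 and 1225 CPM in WT, and made up 10.9% of the members' counts in KO, against 14.6% and 16.7% in WT. All 4 had a negative log2 fold change, where 4543 of 7984 genes tested did, and none passed the test. That of Uhrf1, -0.087, was 0.56 without WT replicate 1, 0.078 with the mean over transcript rows and 0.0095 on FPKM plus 1. Dnmt1 (chromosome 9, 20907206 to 20959888, minus strand), the maintenance methyltransferase, had 128 counts or 484 CPM in KO, against 222 counts or 614 CPM in WT replicate 1 and 288 counts or 886 CPM in WT replicate 2. KO lay below both WT libraries, with a log2 fold change of -0.59 (SE 0.56, edgeR adjusted p 0.80). Dnmt3a (chromosome 12, 3801559 to 3914443, plus strand), the de novo methyltransferase, had 11 counts or 41.6 CPM in KO, against 50 and 30 counts or 138 and 92.3 CPM in WT. Its log2 fold change was -1.43 (SE 1.47, edgeR adjusted p 0.82). Dnmt3b, its paralog, had 11 counts or 41.6 CPM in KO, against 27 and 31 counts or 74.7 and 95.4 CPM in WT, so KO again lay below both. Uhrf1, which binds hemimethylated DNA and brings in Dnmt1, had 215 CPM in KO, against 318 CPM in WT replicate 1 and 151 CPM in WT replicate 2, so KO lay between them. Without Dnmt1, the other 3 summed to 298 CPM in KO, against 531 and 339 CPM in WT. The 17 genes of an S phase and replication list summed to 3710 CPM in KO, against 4258 and 3302 CPM in WT, with KO between the WT libraries. The 14 genes of a G2 and mitosis list summed to 3970.5 CPM in KO, against 3398 and 3093 CPM in WT, with KO above both, and the part of cycling in the values of the members was not tested.

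The counts on the authors' transcript rows do not separate the forms of Dnmt1, Dnmt3a or Dnmt3b. The rows of Uhrf1 differed in WT replicate 1, with 115 or 79 counts, and those of 8 members in all differed in some library. All 5 Dnmt1 rows carried the same count, 128 in KO and 222 and 288 in WT, and all 3 Dnmt3a rows likewise carried 11 in KO and 50 and 30 in WT. The deposited FPKM nevertheless placed 4.69 FPKM of Dnmt3a in KO, against 15.5 and 10.4 FPKM in WT, on the transcript that starts at the promoter printed above, and at most 0.226 FPKM on any other. For Dnmt1 it placed 70.2 FPKM in KO, against 88.4 and 128 FPKM in WT, on the transcript that starts at the outermost promoter. A further 23.1 FPKM in KO, against 29.1 and 42.1 FPKM in WT, stood on another row. On yet another row there were 2.80 FPKM in KO, against 3.53 and 5.11 FPKM in WT. The row counts of Dnmt1 and of Dnmt3a were identical, so the counts do not show this split, which stands only in the authors' deposited FPKM.

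Of the TET dioxygenases, Tet3 had the most counts, with 28 counts or 106 CPM in KO, against 31 and 58 counts or 85.7 and 178 CPM in WT. Tet2, whose loss expands blood stem cells in mice, had 4 counts or 15.1 CPM in KO, against 22 and 14 counts or 60.8 and 43.1 CPM in WT. KO lay below both WT libraries for Tet2 and between them for Tet3, and the log2 fold change of Tet2 was -1.72 (SE 2.18, edgeR adjusted p 0.85). Tet1 had 0 counts in KO and 0 and 3 in WT, which is at or under the floor of 3 counts in each. On the FPKM scale, which allows comparison between genes, the TET genes kept apart, at 7.99 to 15.5 FPKM over the libraries for Tet3, 1.67 to 6.66 FPKM for Tet2 and 0 to 0.648 FPKM for Tet1.

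The members of Polycomb repressive complex 2, which places the repressive methyl mark on histone H3, summed to 344 CPM in KO, against 271 and 554 CPM in WT, so KO lay between the WT libraries. Ezh2, its main catalytic subunit in dividing cells, had 174 CPM in KO, against 71.9 CPM in WT replicate 1 and 262 CPM in WT replicate 2. Ezh1, the alternative catalytic subunit, had 45.3 CPM in KO, against 49.8 CPM in WT replicate 1 and 197 CPM in WT replicate 2. Its log2 fold change was -1.39 (SE 1.41, edgeR adjusted p 0.82). It was -0.10 without WT replicate 2 and -2.06 without WT replicate 1. Eed, which reads the methyl mark, had 11 counts in KO, against 25 in WT replicate 1 and 1 in WT replicate 2. Suz12, the scaffold, had 83.1 CPM in KO, against 80.2 and 92.3 CPM in WT. For Ezh2, Eed and Suz12, KO lay between the WT libraries.

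The subunits of Polycomb repressive complex 1, which ubiquitinates histone H2A, and Asxl1 summed to 261 CPM in KO, against 495 and 397 CPM in WT. Ring1, a catalytic subunit, had 5 counts or 18.9 CPM in KO, against 22 and 34 counts or 60.8 and 105 CPM in WT, and its log2 fold change of -2.06 (SE 1.83, edgeR adjusted p 0.79) was the lowest of all members tested. Rnf2, the other catalytic subunit, had 0 counts in KO, against 10 and 3 in WT, which is at least 1.62-fold lower when KO is set at the floor of 3 counts. Against WT replicate 1 alone the bound was 2.38-fold, and WT replicate 2 was itself at the floor. Trmt1l, which overlaps Rnf2 on the opposite strand, had 69 counts in KO, against 33 and 15 in WT, and since strand use is not stated their reads cannot be told apart. Bmi1, which activates the catalytic subunits, had 4 counts in KO, against 0 and 6 in WT. Kdm2b, which carries the complex to CpG islands, had 121 CPM in KO, against 127 and 86.2 CPM in WT. Asxl1 (chromosome 2, 153345830 to 153404007, plus strand), partner of the H2A deubiquitinase Bap1, had 28 counts or 106 CPM in KO, against 101 and 58 counts or 279 and 178 CPM in WT (log2 fold change -1.07, SE 1.04, edgeR adjusted p 0.81). KO was thus below both WT libraries for Ring1 and Asxl1, and between them for Kdm2b and Bmi1. For Rnf2 KO was below WT replicate 1 and could not be told apart from WT replicate 2 at the floor.

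The genes of H3K9 methylation and heterochromatin did not share a direction. Ehmt1 had 174 CPM in KO, against 88.5 and 95.4 CPM in WT, where the WT libraries lay close together and KO above both (log2 fold change 0.96, SE 1.15, edgeR adjusted p 0.84). Ehmt2, with which Ehmt1 forms the G9a and GLP methyltransferase, had 310 CPM in KO, against 675 CPM in WT replicate 1 and 280 CPM in WT replicate 2. Suv39h1, the methyltransferase of constitutive heterochromatin, had 102 CPM in KO, against 69.1 and 89.2 CPM in WT. Cbx5, the heterochromatin protein that binds the mark, had 132 CPM in KO, against 194 and 357 CPM in WT (log2 fold change -1.01, SE 0.95, edgeR adjusted p 0.80). In KO Ehmt1 and Suv39h1 were above, and Cbx5 below, both WT libraries.

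**Figure D2:**
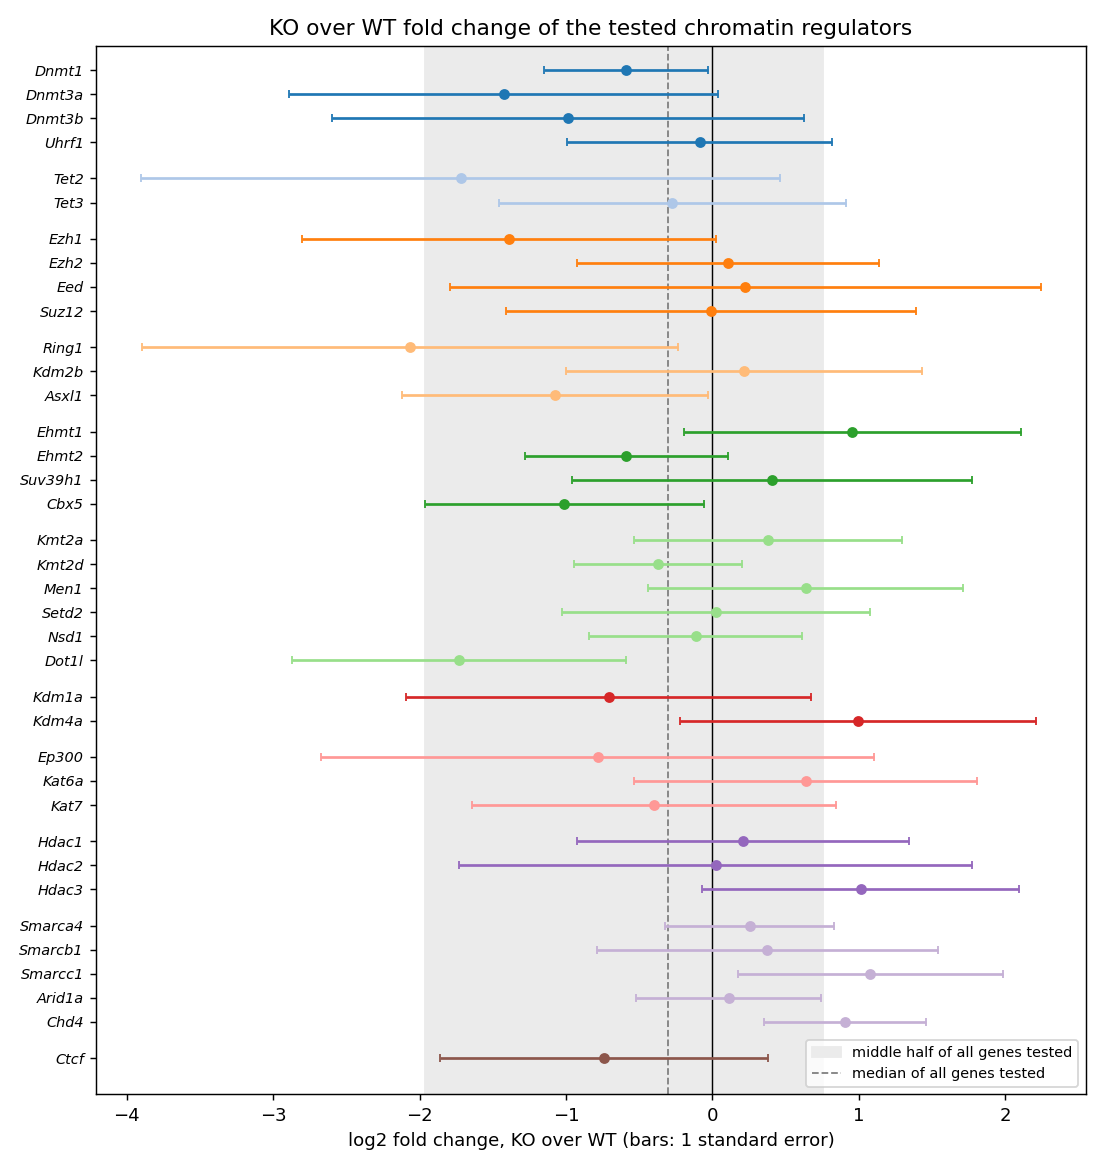
Log2 fold change of KO over WT for the 37 members tested, with 1 standard error on each side, coloured by role. The grey band spans the interquartile range of all genes tested and the dashed line their median. The points lie between -2.06 for Ring1 and 1.08 for Smarcc1, and the bars of 7 members, Dnmt1, Ring1, Asxl1, Cbx5, Dot1l, Smarcc1 and Chd4, do not reach 0, although none of them passed the test.

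Among the Trithorax-type and other activating methyltransferases, Dot1l (chromosome 10, 80755101 to 80795461, plus strand), which methylates the core of histone H3 in transcribed genes, was the member of this class at least 2-fold below each WT library. It had 17 counts or 64.2 CPM in KO, against 90 counts or 249 CPM in WT replicate 1 and 62 counts or 191 CPM in WT replicate 2. The log2 fold change was -1.73 (SE 1.14) and did not pass (edgeR adjusted p 0.67). The ratio of KO to WT counts was 0.300, with an exact 95% interval of 0.170 to 0.496 that covers counting error only. Kmt2a (MLL1), whose leukaemic fusions recruit Dot1l in human and mouse, had 249 CPM in KO, against 185 and 209 CPM in WT, and its cofactor Men1 had 185 CPM in KO, against 124 and 120 CPM in WT. Both lay above the WT pair, with log2 fold changes of 0.38 (SE 0.92, edgeR adjusted p 0.94) and 0.64 (SE 1.08, edgeR adjusted p 0.91). Kmt2d, the enhancer methyltransferase, had the most counts of the class, or 495 CPM in KO, against 733 and 582 CPM in WT. Nsd1, which methylates histone H3 in gene bodies and between genes, had 340 CPM in KO, against 418 and 339 CPM in WT. Setd2, which adds the mark laid down behind RNA polymerase, had 159 CPM in KO, against 124 and 197 CPM in WT. The class summed to 1492 CPM in KO, against 1833 and 1637 CPM in WT, and without Kmt2d to 997 CPM in KO, against 1101 and 1056 CPM in WT.

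Among the demethylases and acetyltransferases, the WT libraries lay far apart for all but Kat7. Kdm1a (LSD1), which removes activating methyl marks from histone H3, had 64.2 CPM in KO, against 66.4 CPM in WT replicate 1 and 151 CPM in WT replicate 2. Kdm4a, which removes trimethyl marks, had 41 counts or 155 CPM in KO, against 45 counts or 124 CPM in WT replicate 1 and 11 counts or 33.9 CPM in WT replicate 2. The rows of Kdm4a did differ: the second row had 3 counts in KO, against 38 in WT replicate 1 and 1 in WT replicate 2. Ep300, the p300 coactivator, had 8 counts in KO, against 8 and 28 in WT. Kat6a (MOZ), needed for stem cell maintenance in mice, had 40 counts or 151 CPM in KO, against 19 and 48 counts or 52.5 and 148 CPM in WT. Kat7 (HBO1), which acetylates histones at replication origins and genes, had 90.7 CPM in KO, against 105 and 142 CPM in WT.

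The deacetylases summed to 397 CPM in KO, against 310 and 299 CPM in WT. Hdac3, the catalytic subunit of the NCOR complexes, had 204 CPM in KO, against 163 CPM in WT replicate 1 and 43.1 CPM in WT replicate 2, and its log2 fold change was 1.01 (SE 1.08, edgeR adjusted p 0.83). It was 0.35 without WT replicate 2 and 2.28 without WT replicate 1. Hdac1 had 140 CPM in KO, against 108 and 142 CPM in WT, and its paralog Hdac2 had 49.1 CPM in KO, against 11.1 and 89.2 CPM in WT. Sirt1, an NAD-dependent deacetylase, had 1 count in KO, against 10 and 8 in WT, a ratio of 0.149 with an exact 95% counting interval of 0.00357 to 0.942. Without Hdac3 the class summed to 193 CPM in KO, against 147 and 255 CPM in WT, with KO between the WT libraries.

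The SWI/SNF subunits and Chd4 summed to 2437 CPM in KO, against 1988 and 1496 CPM in WT. They made up 34.1% of the members' counts in KO, against 25.4% and 20.4% in WT. All 5 had a positive log2 fold change, where 3441 of 7984 genes tested did, and none passed the test. Without WT replicate 2 that of Smarcb1 was -0.58. Chd4 (chromosome 6, 125095980 to 125130591, plus strand), the ATPase of the NuRD complex, had 227 counts or 858 CPM in KO, against 218 counts or 603 CPM in WT replicate 1 and 109 counts or 335 CPM in WT replicate 2. The log2 fold change was 0.91 (SE 0.55, edgeR adjusted p 0.62). Smarcc1 (chromosome 9, 110132024 to 110240178, plus strand), a core scaffold subunit, had 85 counts or 321 CPM in KO, against 43 and 63 counts or 119 and 194 CPM in WT, and had the highest log2 fold change of the members tested, 1.08 (SE 0.90, edgeR adjusted p 0.78). Dhx30, which overlaps Smarcc1 on the opposite strand, had 58 counts in KO, against 37 and 73 in WT. Smarca4 (BRG1), the ATPase, had 623 CPM in KO, against 559 and 514 CPM in WT. Arid1a, the subunit that defines the BAF form, had 495 CPM in KO, against 495 and 446 CPM in WT. Smarcb1, another core subunit, had 37 counts in KO, against 77 in WT replicate 1 and 2 in WT replicate 2. Without Chd4 the sum was 1579 CPM in KO, against 1385 and 1160 CPM in WT, with KO again above both.

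**Figure D3:**
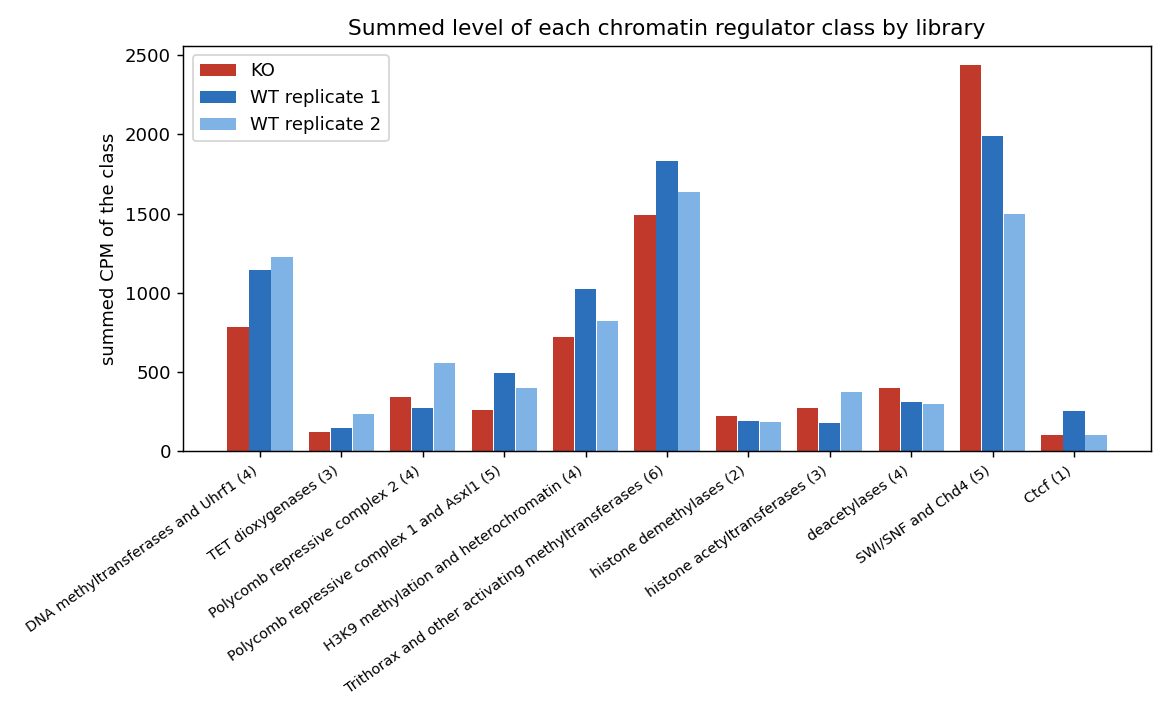
Summed CPM of each class of chromatin regulators, with the number of members in brackets, in KO (red) and WT replicates 1 and 2 (dark and light blue). The KO bar is the highest of its trio for SWI/SNF and Chd4, with 2437 CPM, against 1988 and 1496 CPM in WT, and the lowest for DNA methyltransferases and Uhrf1, with 782 CPM, against 1145 and 1225 CPM in WT.

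Ctcf, the insulator protein, had 27 counts or 102 CPM in KO, against 91 counts or 252 CPM in WT replicate 1 and 32 counts or 98.5 CPM in WT replicate 2. KO lay next to WT replicate 2 and far from WT replicate 1. The predicted gene Gm5914, which overlaps Ctcf on the opposite strand, had 0 counts in KO, against 30 and 0 in WT.

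The filter on low counts passed 37 of the 41 members, and the median over these is set beside that over all genes tested. Their median log2 fold change was -0.012 over the 37 tested, 18 positive and 19 negative, against -0.31 over all genes tested. Every tested member had a count in each library. Over the 6296 genes for which that holds the median was -0.11, and where some library reached 50 counts it was -0.11 for 21 members and -0.23 for all 2831 genes. On TMM-scaled CPM, 12 of 37 members were above both WT libraries in KO, where 32.4% of all genes tested were, and 12 were below both, where 37.5% were. On library totals 10 were above and 12 below, since Hdac1 and Arid1a then lay between the WT libraries. The size rule asked for at least 50 counts in some library and, with TMM-scaled CPM plus 1, a 2-fold difference from each WT library to the same side. It held for 0 of 21 members on the higher side, against 9.68% of all genes with 50 counts, and for Dot1l and Dnmt3a, 2 of 21, on the lower side, against 17.6%. Both reached 50 counts in WT only, Dnmt3a in WT replicate 1 alone with 50. KO, the shallowest library, had 1317 genes with 50 counts, against 1911 and 1752 in WT, so the minimum admits more genes through WT. The lower count was 3 without WT replicate 1, 5 without WT replicate 2 and 0 at a fold of 3, and the higher count was 2 without WT replicate 1 and 1 without WT replicate 2.

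Between the WT libraries, many members differed by more than counting error. The exact 95% counting interval of the ratio of WT replicate 1 to WT replicate 2 left out 1 for 21 of the 37 members tested, where it did so for 59.3% of all genes tested. The ratio was 35.2 (9.41 to 296) for Smarcb1, 22.8 (3.74 to 937) for Eed and 3.85 (2.12 to 7.46) for Hdac3. It was 0.883 (0.511 to 1.52) for Suz12 and 1.10 (0.895 to 1.36) for Smarca4, where no difference was detectable at this depth. The same interval for KO over the WT pair lay above 1 for 7 of 37 members, Ehmt1, Men1, Kdm4a, Kat6a, Hdac3, Smarcc1 and Chd4, against 26.9% of genes tested. It lay below 1 for 12, among them Dnmt1, Dnmt3a, Dot1l and Asxl1, against 37.8%. The median distance between the WT libraries was 0.67 on the log2 scale over the 37 members, and the median distance of KO from the WT mean was 0.59. Over all genes tested these distances were 1.16 and 1.27. The WT distance is between single libraries and the KO distance is from a mean, so they are not like measures and their order has no reading. At least 2-fold between the WT libraries separated 14 of the 37 members, against 55.1% of genes tested.

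**Figure D4:**
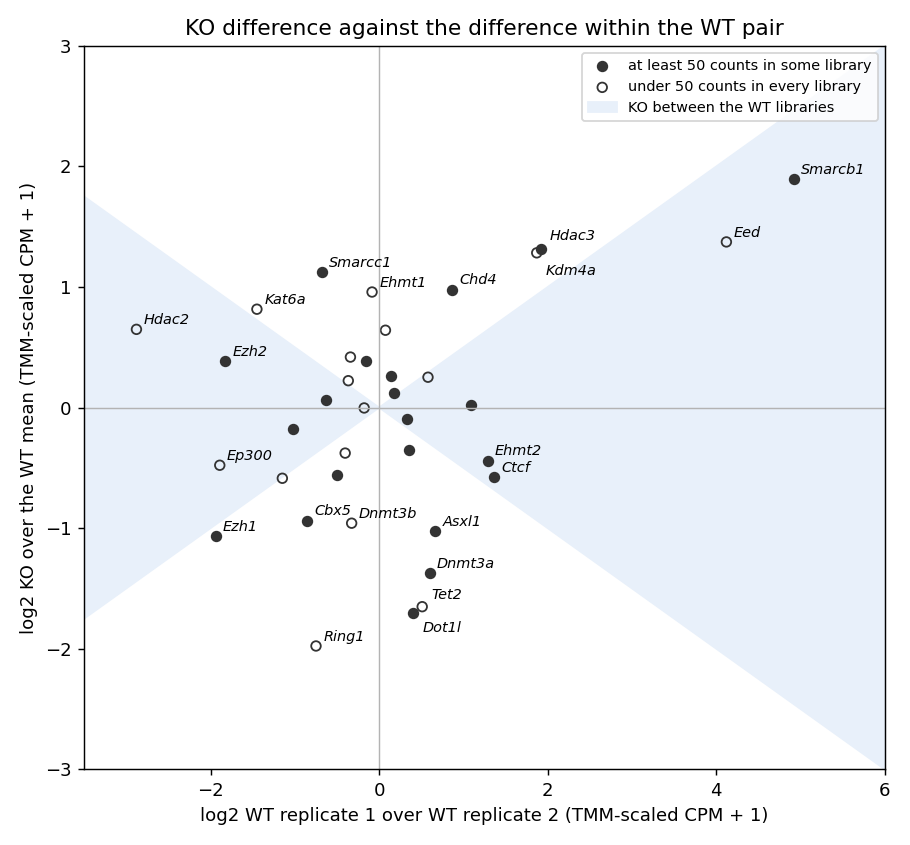
For the 37 members tested, the log2 difference between KO and the mean of the WT libraries (vertical) against that between WT replicates 1 and 2 (horizontal), on TMM-scaled CPM plus 1. Points in the blue area have KO between the WT libraries. Smarcb1 and Eed lie far to the right inside it, and Dot1l and Ring1 far below it.

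On the FPKM scale the highest members were Dnmt1, with 96.1 FPKM in KO, against 121 and 175 FPKM in WT, and Ehmt2, with 80.1 FPKM in KO, against 173 and 75.1 FPKM in WT. Chd4 followed with 135 FPKM in KO, against 94.3 and 52.6 FPKM in WT, and Smarca4 with 99.3 FPKM in KO, against 88.2 and 81.4 FPKM in WT. In the order of mean FPKM, 39 of 40 pairs of neighbours had overlapping ranges over the libraries, the exception being Kat7 and Kmt2a. FPKM was summed only over rows tied for the highest count. In WT replicate 2 this left out a Kat7 row with 45 counts and 6.97 FPKM, so the place of Kat7 in the order depends on that rule. Neighbours in the order did not otherwise differ beyond their spread. In each library Dnmt1 lay above Dnmt3b, with 10.6 to 24.3 FPKM, and Dnmt3a, with 4.79 to 15.8 FPKM. Ezh2, with 27.5 to 100.4 FPKM, lay above Ezh1, with 10.9 to 47.2 FPKM, in each library, and Hdac1, with 55.0 to 72.4 FPKM, above Hdac2, with 5.55 to 44.9 FPKM. The lowest members were Tet1, Bmi1 and Rnf2, each listed at 0 in at least 1 library.

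A further 178 chromatin genes outside the list, readers, partners and paralogs of the members, were counted in the same fit. Of the 158 tested, 0 were higher and 0 lower in KO by edgeR, with 2 higher and 13 lower at an unadjusted p under 0.05, where 282 and 520 of all 7984 genes were. DESeq2 called 0, with 25 at an unadjusted p under 0.05, where 13.2% of all genes tested passed. Their median log2 fold change was -0.51, against -0.31 over all genes tested, with 55 positive and 103 negative, against 3441 and 4543 of all genes. By the size rule 6 of 82 were higher in KO (7.32%) and 18 lower (22.0%), against 9.68% and 17.6% of all genes. Bap1, the deubiquitinase that Asxl1 activates, had 53 counts in KO, against 8 and 1 in WT, and Jarid2, which guides Polycomb repressive complex 2, had 87 counts in KO, against 19 and 6 in WT. Hmgb1, a DNA-bending protein, had 102 counts in KO, against 44 and 36 in WT. Their log2 fold changes were 3.97 (SE 1.48, edgeR adjusted p 0.26), 3.23 (SE 1.11, edgeR adjusted p 0.21) and 1.77 (SE 0.91, edgeR adjusted p 0.51). On the lower side, Kmt2c, a paralog of Kmt2d, had 0 counts in KO, against 17 and 50 in WT. This gives a bound of 8.34-fold lower when KO is set at the floor and the WT counts are taken as exact. That bound was 4.05-fold against WT replicate 1 alone and 13.0-fold against WT replicate 2 alone. Baz2a, a silencer of ribosomal DNA, had 0 counts in KO, against 110 and 6 in WT. Its bound on the same terms was 14.4-fold lower, or 26.2-fold and 1.56-fold against WT replicates 1 and 2 alone. Setd7, a lysine methyltransferase, had 1 count in KO, against 94 and 60 in WT (log2 fold change -5.70, SE 1.66, edgeR adjusted p 0.11). None of these 6 passed the test, and for Bap1, Jarid2, Kmt2c and Baz2a the WT libraries lay more than 2-fold apart. The 6 were picked as the largest folds past the size rule on these same values, so their size is no separate evidence. Bap1, Jarid2 and Hmgb1 reached its minimum of 50 counts in KO only, and Kmt2c, Baz2a and Setd7 in WT only.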

How the data were processed

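RNA was taken from sorted LKS cells of mouse bone marrow, with 1 KO and 2 WT libraries, grouped by sample titles and the design text. Per the submitters' processing notes STAR and mm10 were used. The sources used here do not give the counting tool, strand use or the tool behind FPKM. The labels also name LLP cells, which they do not explain. The deposited counts are whole and given for each RefSeq transcript, with reads shared by transcripts of a gene repeated on each row. The deposited FPKM values carry no header, and the unit was inferred from the values.

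The gene count was the highest over a symbol's rows, and CPM used the total of gene counts. For 25 members several rows exist, and FPKM levels are the sum over rows tied for the highest count. The test was that of edgeR 4.0.16, run in R 4.3.3 (filterByExpr, TMM, quasi-likelihood F-test, Benjamini-Hochberg adjustment over 7984 genes, threshold 0.05), with 1 residual degree of freedom. SE is the absolute log2 fold change over the square root of F. Ratios of counts have exact 95% intervals that cover counting error only, and a count of 0 is read against a floor of 3 counts over the group. Bounds from that floor leave out the counting error of WT. On 3 simulations of this comparison with 6971 to 6990 genes, the test recovered 8 to 24% of genes raised 4-fold, 70 to 88% raised 16-fold, 0 to 2% lowered 4-fold and 8 to 14% lowered 16-fold, with 1 to 6 false calls. The genes altered were among the more abundant. DESeq2 1.42.0, other scalings, filters and gene counts, and leaving out each WT library were alternatives.

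All 41 members are named, with the other chromatin genes past the test and up to 3 per direction past the size rule. The members and lists were chosen with earlier results of these data known. A planned comparison of paralog proteins was not made. Promoter windows and coordinates are RefSeq's on GRCm38.p6, and overlaps are from GENCODE M21.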

Additional observations from a re-analysis of the deposited data

How the results depend on the processing

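Calls among the members stayed at 0 under DESeq2, DESeq2 size factors, library totals, no filter on low counts, a stricter filter and the mean over transcript rows. Their smallest adjusted p ranged from 0.43 with DESeq2 to 0.80 with no filter. No paired analysis was possible because the KO group has 1 library with no replicate number. Against 1 WT library no residual degree of freedom is left, so those values have no test. The median log2 fold change of the members was -0.060 on library totals and 0.029 with the mean over transcript rows, and ranged from -0.018 to 0.033 with 1 WT library left out. That over all genes tested was -0.35 on library totals and -0.30 with the mean over rows. With no filter it was -0.60, against -0.023 for the members, and with the stricter filter -0.096, against -0.016. Without WT replicate 1 it was -0.13 and without WT replicate 2 -0.11, so its distance from the members' median depends on the setting.

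Under the size rule 1 member was higher at a fold of 1.5, and 1 to 2 with a WT library left out. On the lower side there were 4 at a minimum of 20 counts, 0 at 100, 0 at a fold of 3, 1 with a pseudocount of 10 CPM, and 3 to 5 with a WT library left out. The log2 ratio of summed CPM was -0.21 for the demethylases with the mean over transcript rows. Leaving out the member with the most counts, chosen after seeing the data, gave -0.46 for the DNA methyltransferases and -1.85 for TET enzymes. It gave -0.44 for Polycomb repressive complex 1, where Asxl1 was the member left out, and -0.049 for the H3K9 genes. For the demethylases it gave -0.59 and for the deacetylases 0.041.

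With both WT libraries kept, 3 of 37 members reversed. Uhrf1 was 0.078 with the mean over rows and 0.0095 on FPKM plus 1, and on library totals Setd2 was -0.024 and Hdac2 -0.033. Against single WT libraries 13 reversed, and 24 reversed nowhere. The ranges were -0.53 to 0.56 for Uhrf1, -0.70 to 0.33 for Tet3, -0.54 to 1.30 for Ezh2, -0.70 to 3.63 for Eed, -0.10 to 0.080 for Suz12, -0.044 to 0.54 for Kdm2b, -1.09 to 0.20 for Ehmt2, -0.26 to 0.38 for Setd2, -0.27 to 0.057 for Nsd1, -1.45 to 0.47 for Ep300, -0.81 to 2.14 for Hdac2, -0.58 to 4.46 for Smarcb1 and -1.27 to 0.10 for Ctcf. The cause was not tested. Depth limits single members: 4 were too low to test.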
